A study of Mus musculus with 2 samples.

Results

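Endothelial cells that carried Plvap transcript were selected from 2 single cell RNA sequencing libraries of mouse kidney, a control kidney and a kidney 24 h after ischemia. Plvap encodes the protein of the diaphragms that span the pores of fenestrated capillaries, and it marks the peritubular capillaries of the kidney. A cell was taken as a member when at least 5 of its unique molecular identifiers (UMIs, the counted RNA molecules), and at least 0.1% of them, came from 6 endothelial genes (Pecam1, Kdr, Flt1, Emcn, Egfl7 and Cdh5). It also needed at least 2 UMIs of Plvap, no UMI of the glomerular capillary gene Ehd3 or the leukocyte gene Ptprc, and fewer UMIs of the proximal tubule genes Lrp2 and Slc34a1 than of the 6 endothelial genes. Of 25702 cells kept in both libraries, 801 met this rule (3.12%). These were 376 of 12586 control cells (2.99%, exact Clopper-Pearson 95% interval 2.70 to 3.30) and 425 of 13116 cells of the ischemic kidney (3.24%, 2.94 to 3.56).

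Both kidneys came from male wildtype C57BL/6J mice of 19 weeks. The ischemic kidney had its vessels clamped for 27 min by its label (the study's methods give a slightly different time) and was taken at 24 h of reperfusion, and the control was the uninjured kidney of the other side. The control is thus a kidney from a host with an injured kidney, not a kidney of an untouched animal, and the sources do not state outright that both libraries came from the same mouse. Each condition had 1 library, so no test between conditions was possible, and a difference between the kidneys cannot be told apart from a difference between the libraries. Every interval given here covers counting error only.

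Peritubular capillaries run between the tubules, take back the fluid the tubules reabsorb and bring them oxygen. Their wall is thin and fenestrated, and is kept so in part by VEGF made by neighbouring tubule cells and read by the receptors Kdr (VEGFR2) and Flt1 (VEGFR1). After ischemia they are known as a site where leukocytes adhere, where permeability rises and where capillaries may later be lost. The comparison asked which genes of these cells differed between the kidney with ischemia and the control.

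The members held 1911621 UMIs in the control and 2932112 in the ischemic kidney. Their median depth was 3648 UMIs and 1738 genes per cell in the control, and 4565 UMIs and 2026 genes in ischemia. Mitochondrial transcripts took a median of 5.68% and 5.30% of a member's UMIs, against 12.02% and 9.48% over all kept cells. Deep cells with more than 20000 UMIs were 10 control members holding 14.7% of the UMIs and 19 ischemia members holding 26.0%. No member barcode occurred as a member in both libraries, though 2 control members carried a barcode that was also a kept cell of the ischemic kidney.

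The label of the cells was checked against genes the rule did not use. All 18 measured genes of an endothelial identity list were present in both libraries, summing to 8540 and 9560 CPM (a gene's UMIs over all UMIs of the cells, on a scale common to both libraries), against 402 and 562 CPM over all kept cells. Igfbp3, a growth factor binding protein of cortical capillaries, stood at 709 and 745 CPM, and Rgcc at 1070 and 710 CPM. The list of glomerular endothelial genes summed to 258 and 235 CPM in the members, against 223 and 120 CPM over all kept cells. Plat led it, at 165 CPM in the control, with a UMI in 34.0% and 42.1% of members, followed by Lpl at 42.9 CPM, while Gata5 and Sost were at or below 9.42 CPM. The rule also let in other vessels. Large-vessel, vasa recta or lymphatic genes (Vwf, Selp, Gja5, Bmx, Slc14a1, Ccl21a, Prox1 or Mmrn1) gave a UMI in 54 control members (14.4%) and 89 ischemia members (20.9%). These shares count 1 UMI at unequal depth and leave out other vessel genes. At least 3 UMIs of a list of 10 artery genes were in 38.8% and 36.7% of members. Sox17, the most abundant of these, gave a UMI in 35.6% and 33.6%. The setting below without large-vessel or lymphatic genes used only the genes named in brackets. Aqp1, the water channel of descending vasa recta, reached 10 UMIs in 21 cells of each library, and Ccl21a, a lymphatic chemokine, came from 4 cells of each. The group is therefore called Plvap-positive endothelial cells below. A further 547 endothelial cells had at least 2 UMIs of Plvap but also a UMI of Ehd3 and were left out by the rule.

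The genes that chose the cells are given as a description. Plvap (ENSMUSG00000034845, chr8:71497765-71511752, minus strand, GRCm38) stood at 2009 CPM in control cells and at 1623 in ischemia, with a median of 9 UMIs per cell in each. Emcn, a sialomucin of capillaries and veins, had 1760 and 1539 CPM. Both VEGF receptors were lower in ischemia, Flt1 at 1739 and 1364 CPM (ratio 0.785, 95% interval 0.749 to 0.822) and Kdr at 548 and 371 CPM (ratio 0.677, 0.622 to 0.738). Egfl7 had 805 and 1054 CPM, the junction protein Pecam1 613 and 765, and VE-cadherin (Cdh5) 442 and 627. Endothelial cells with exactly 2 Plvap UMIs, just inside the rule, numbered 29 in each library, with a median of 17 and 15 UMIs of the 6 genes. Just outside stood 33 control cells and 43 ischemia cells with 1 Plvap UMI, with medians of 10 and 14 such UMIs.

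Over the summed counts, 8965 genes had a mean of at least 10 CPM in both libraries together and were compared, without the 7 genes of the rule and without mitochondrial genes. In ischemia 233 of them were at least 2-fold higher (2.6%) and 369 were at least 2-fold lower (4.12%). Both together were 602 genes (6.72%), and the median ratio over all genes was 0.999. All 602 had a 95% counting interval that excluded 1. With at least 10 CPM and these UMI totals nearly any 2-fold ratio does so. The interval also leaves out the spread over cells, so it is no support for these calls. Of the lower genes 252 of 369 (68.3%) had a lower level in the members than in the kept cells that were not endothelial, read in the library where the members' level was higher, against 25.8% of all genes compared and 24.0% of the higher ones. Of the 15 genes with the lowest ratio 14 were below those cells in this way, among them the tubule genes Calb1 (116 and 8.53 CPM), Slc12a3 (98.3 and 14.7) and Lrp2 (286 and 60.7). The exception, Trpm3, a cation channel, had 138 and 28.6 CPM (ratio 0.207, and 0.352 without members carrying large-vessel or lymphatic genes). To look at transcripts enriched in the members, genes were taken that were at least 2-fold above the kept cells that were not endothelial and had less than 50% of their UMIs in 5 cells, both read in the library where the gene was higher. This left 79 higher and 74 lower genes, of which 57 and 49 met the 2-fold bound in both libraries. A gene could thus enter through the library where it was high, so the counts support no difference, and the narrowing was chosen after values were seen.

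**Figure D1:**
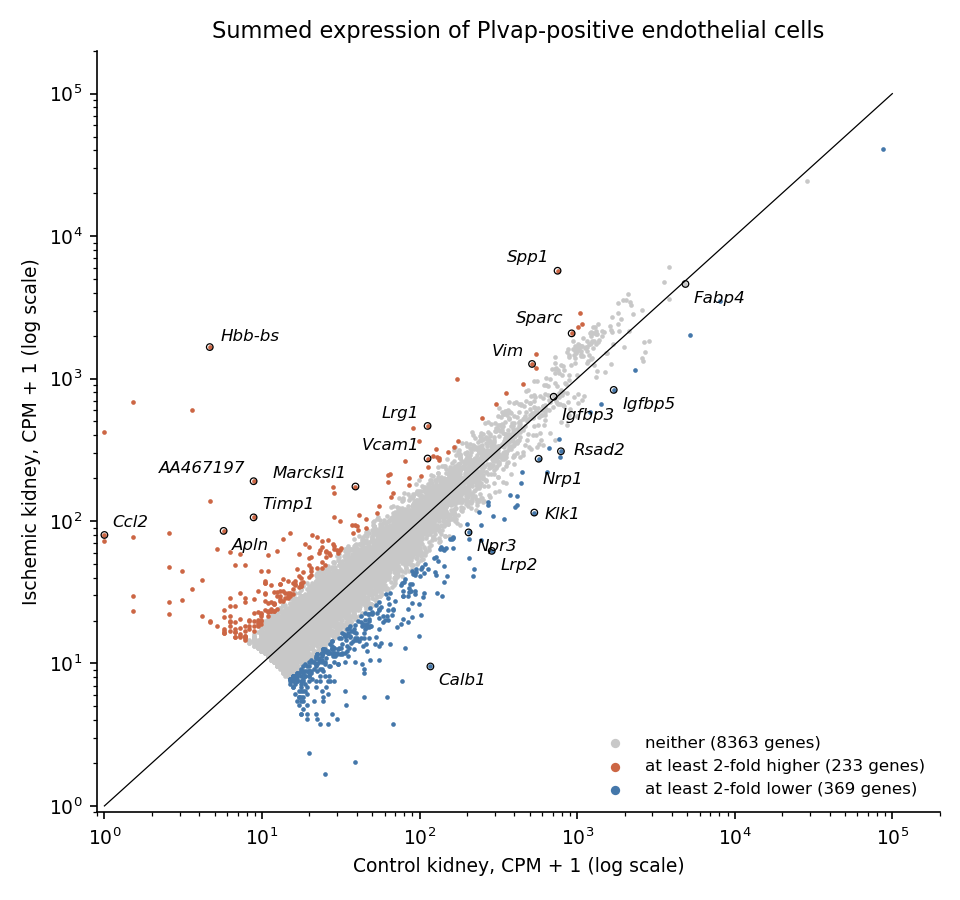
Summed expression of the 8965 compared genes in Plvap-positive endothelial cells, in CPM plus 1 on log axes, for the control kidney (x axis) and the ischemic kidney (y axis), each point a gene, with the line of equal level. Orange points are the 233 genes at least 2-fold higher in ischemia and blue points the 369 at least 2-fold lower. Circled names show that high-ratio genes include Hbb-bs, which came from few cells, and low-ratio genes include the tubule genes Calb1, Lrp2 and Klk1.

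The genes with the highest ratios were of several kinds. AA467197 (ENSMUSG00000033213, chr2:122636986-122641191, plus strand) stood at 7.85 CPM in control cells and at 189 CPM in ischemia (ratio 24.1, 95% interval 14.5 to 43.4). After thinning each cell to 1000 UMIs, 1.07% of control and 10.4% of ischemia members had a UMI of it, against 0 in thick ascending limb cells of either library thinned alike. Timp1, an inhibitor of matrix metalloproteinases, had 7.85 and 105 CPM (ratio 13.4), with 60.7% of its ischemia UMIs in 5 cells. Ccn1, a secreted matricellular protein, had 27.7 and 156 CPM (ratio 5.61, 4.21 to 7.60). Marcksl1, a regulator of the actin cytoskeleton, had 38.2 and 174 CPM (ratio 4.55, 3.55 to 5.89). Lrg1 (chr17:56119678-56122001, minus strand), a secreted glycoprotein known to act on endothelial TGF-beta signalling, had 111 and 464 CPM (ratio 4.16, 3.60 to 4.83). Ch25h, which makes 25-hydroxycholesterol, had 27.7 and 106 CPM (ratio 3.84). All 6 stayed at least 2-fold higher under each of the 16 alternative settings, with lowest ratios of 13.9 for AA467197, 5.32 for Timp1, 3.09 for Ccn1, 2.75 for Marcksl1, 2.17 for Lrg1 and 3.64 for Ch25h.

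Other high ratios belonged to genes with most of their UMIs in a few cells. Mgp, a matrix calcification inhibitor of larger vessels, had 173 and 999 CPM (ratio 5.78), with 89.7% and 65.2% of its UMIs in 5 cells. It reached 10 UMIs in 4 control and 20 ischemia members. Its ratio ranged from 3.48 with 1 Plvap UMI let in to 19.5 without its 5 highest members. Of 4873 Hbb-bs UMIs in ischemia 4864 came from a single cell, and the globin genes Hba-a1, Hba-a2 and Hbb-bt were likewise at 0 to 2.62 CPM in the control and at 423 to 687 CPM in ischemia. Acta2, the actin of smooth muscle, had 3.66 and 138 CPM with 95.1% of its ischemia UMIs in 5 cells. Without the 1 control and 11 ischemia members with at least 3 UMIs of blood, immune, mural or fibroblast markers, the Acta2 ratio was 1.90.

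Among adhesion molecules for leukocytes, Vcam1 and both vascular selectins were at least 2-fold higher in ischemia, and no other compared gene of the list was past 2-fold. Of 12 compared genes 3 were at least 2-fold higher (against 2.6% of all genes) and none was lower, with a median ratio of 1.27 against 0.999 over all genes. Vcam1 (chr3:116109949-116129688, minus strand), the ligand of integrin alpha 4 on monocytes and lymphocytes, stood at 111 CPM in control cells and at 274 CPM in ischemia (ratio 2.45, 2.11 to 2.87). In thinned cells Vcam1 was seen in 6.67% of control and 17.9% of ischemia members, and in no thick ascending limb cell. Icam1, the ligand of neutrophil integrins, had 80.6 and 115 CPM (ratio 1.42, 1.17 to 1.73, but 1.08 without members carrying large-vessel or lymphatic genes). The selectins, which start leukocyte rolling, were low and sat in few cells. E-selectin (Sele) had 9.42 and 35.5 CPM, with 88.9% and 75% of its UMIs in 5 cells, and P-selectin (Selp) had 2.62 and 32.1 CPM from 5 and 94 UMIs. The most abundant gene of the list, Podxl, a sialomucin of the cell surface, was lower at 610 and 341 CPM (ratio 0.559, 0.513 to 0.608).

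Chemokine and cytokine transcripts were sparse. Ccl2 (chr11:82035571-82037453, plus strand), which attracts monocytes, had no UMI in 376 control members and 231 UMIs in ischemia (78.8 CPM). Against a floor of 3 UMIs in the control this was at least 50.2-fold higher, and in thinned cells at least 7.94-fold. Il6 had 7.85 and 27.3 CPM (ratio 3.48, 1.99 to 6.50) from 15 and 80 UMIs, with 72.5% of the ischemia UMIs in 5 cells, and its ratio ranged from 1.47 in thinned cells to 6.76 with members of at most 20000 UMIs. Cxcl12, which retains CXCR4-bearing leukocytes, was lower at 85.3 and 30.7 CPM (ratio 0.360), but its ratio was 0.883 without the members that carried large-vessel or lymphatic genes. Tnfsf10, the most abundant of the list, had 188 and 122 CPM. Of 8 compared genes of the receptor list 6 had a ratio above 1, with a median ratio of 1.27. At least 2-fold higher was 1 of them (against 2.6% of all genes), Tnfrsf12a, the TWEAK receptor (17.8 and 67.9 CPM, ratio 3.82, 2.64 to 5.66). Il1r1, the interleukin-1 receptor at the centre of the study, had 22.0 CPM from 42 UMIs in the control and 28.6 CPM from 84 UMIs in ischemia (ratio 1.30, 0.890 to 1.94). At this depth no difference of Il1r1 was detectable, and its ratio turned to 0.809 in thinned cells. Tnfrsf1a, the main TNF receptor, had 155 and 192 CPM.

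Feedback genes of NF-kB and STAT3, which these receptors switch on, mostly had ratios above 1. Of 15 compared genes 13 did, and 3 were at least 2-fold higher (against 2.6% of all genes), with a median ratio of 1.49 against 0.999 over all genes. Socs3, the inhibitor of IL-6 family signalling, had 132 and 278 CPM (ratio 2.11, 1.83 to 2.44). Cebpb had 26.2 and 57.0 CPM (ratio 2.18, 1.58 to 3.05) and Birc3, an NF-kB target that restrains cell death, 16.7 and 35.8 CPM (ratio 2.14, 1.43 to 3.29). These 3 lay near the threshold, and their lowest ratios under the alternatives were 1.82 for Socs3, 1.43 for Cebpb and 1.69 for Birc3. With 1 Plvap UMI let in, with at most 1% tubule marker UMIs or without members carrying large-vessel or lymphatic genes, 1 of the 15 was past 2-fold, while 6 were with members of at most 20000 UMIs, 5 without each gene's 5 highest members, and 4 in thinned cells or by the mean of each cell's CPM. Nfkbia, the most abundant gene of the list, had 263 and 293 CPM (ratio 1.12), and its ratio turned to 0.715 in thinned cells.

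The 250 bases before the start of these genes were read from RefSeq (GRCm38.p6) to show where letters known from the factors' sites lie. Of 10 inflammatory genes looked up (Vcam1, Sele, Selp, Ccl2, Il6, Birc3, Socs3, Cebpb, Tnfrsf12a and Lrg1), 8 had a window. The 10-letter NF-kB consensus, searched on both strands, was in 1 of the 8, and the STAT palindrome TTCNNNGAA, which reads alike on both strands, was in 2. Over all 32851 windows of this length, the shares that held them were 7.25% and 7.02%. The 3 windows with a match follow, with the matched letters in capitals, and the 2 motifs do not overlap in them. A match is a run of letters and not a measured binding site.
Il6, chr5:30012864-30013113, plus strand, NF-kB match starting 44 bases before the start: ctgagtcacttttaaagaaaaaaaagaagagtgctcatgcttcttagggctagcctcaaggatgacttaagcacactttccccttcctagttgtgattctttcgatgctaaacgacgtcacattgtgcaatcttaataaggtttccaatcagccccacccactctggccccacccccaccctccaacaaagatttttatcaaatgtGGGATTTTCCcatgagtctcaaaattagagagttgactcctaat
Socs3, chr11:117969367-117969616, minus strand, STAT match starting 154 bases before the start: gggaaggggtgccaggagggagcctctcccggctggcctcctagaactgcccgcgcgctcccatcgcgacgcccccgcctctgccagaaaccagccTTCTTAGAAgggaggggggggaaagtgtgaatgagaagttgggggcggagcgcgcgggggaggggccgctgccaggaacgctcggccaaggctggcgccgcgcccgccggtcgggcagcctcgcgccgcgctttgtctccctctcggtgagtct
Sele, chr1:164047984-164048233, plus strand, STAT match starting 140 bases before the start: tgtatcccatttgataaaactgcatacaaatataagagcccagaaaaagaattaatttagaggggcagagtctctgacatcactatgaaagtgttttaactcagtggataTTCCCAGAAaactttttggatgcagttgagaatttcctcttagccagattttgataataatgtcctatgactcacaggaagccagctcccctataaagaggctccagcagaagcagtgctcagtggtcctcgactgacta

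**Figure D2:**
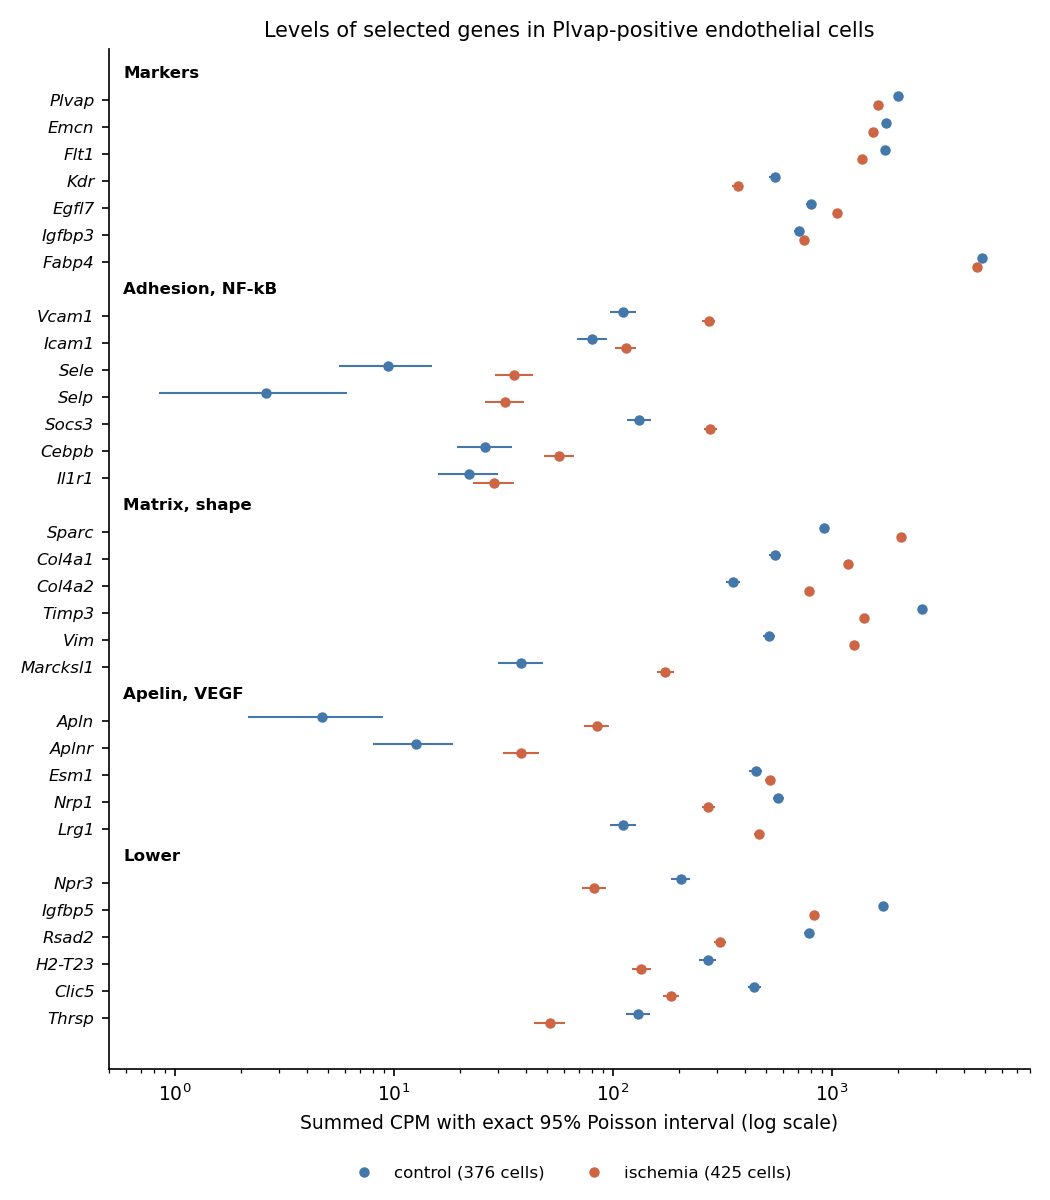
Level of selected genes in Plvap-positive endothelial cells, in summed CPM on a log axis, with the exact 95% Poisson interval of each library as a bar (376 control cells in blue, 425 ischemia cells in orange). Vcam1, Socs3, Sparc, Vim, Marcksl1, Apln and Lrg1 lie further right in ischemia, Nrp1, Npr3, Igfbp5 and Rsad2 further left, and the intervals of Il1r1 overlap.

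The list of basement membrane and matrix genes joins the sheet of collagen IV and laminin under the endothelium with matricellular proteins, proteases and their inhibitors. Of 16 compared genes 6 were at least 2-fold higher (against 2.6% of all genes) and none was 2-fold lower, with a median ratio of 1.40. The 6 were the collagens Col4a1, Col4a2 and Col18a1, the matricellular Sparc, the inhibitor Timp1 and the protease Mmp14. In thinned cells 3 of the 16 were higher, and 4 by the mean of each cell's CPM. The paired collagen IV chains had like ratios. Col4a1 stood at 550 CPM in control cells and at 1180 CPM in ischemia (ratio 2.14, and 1.98 in thinned cells), and Col4a2 had 353 and 786 CPM (ratio 2.23, 2.04 to 2.43). Sparc (chr11:55394500-55423183, minus strand), a collagen-binding matricellular protein, had 922 and 2075 CPM (ratio 2.25, 2.13 to 2.38, and 1.98 by the mean of each cell's CPM). Per cell the median was 3 Sparc UMIs in the control and 7 in ischemia. Laminin chains were not past 2-fold, with Lama4 at 120 and 119 CPM, Lamc1 at 72.7 and 103 CPM (ratio 1.41), Lama5 at 57.5 and 36.5 CPM (ratio 0.634) and Lamb1 at 18.8 in each. Col18a1 had 61.7 and 186 CPM (ratio 3.01), but in thinned cells its ratio turned to 0.618. Timp3, a matrix-bound metalloproteinase inhibitor and the most abundant gene of the list, was lower at 2577 and 1396 CPM (ratio 0.542, 0.519 to 0.565). The Timp3 ratio was 0.714 without members carrying large-vessel or lymphatic genes. Within the inhibitor family the ratios of Timp1 and Timp3 lay on opposite sides of 1.

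Cytoskeletal genes of the mesenchymal list were also higher in part. Vimentin (Vim), the intermediate filament of endothelial and mesenchymal cells, had 516 and 1265 CPM (ratio 2.45, 2.28 to 2.63). It was seen in 12.5% of thinned control members and 29.4% of thinned ischemia members, against 0.285% and 0.633% of thick ascending limb cells. S100a6, a calcium-binding protein, had 1086 and 1936 CPM (ratio 1.78). Snai1, a transcription factor of mesenchymal transition, had 4.18 and 17.4 CPM from 8 and 51 UMIs (ratio 4.16, from 3.72 to 12.4 over the alternatives), while Snai2 had 20.9 and 10.9 CPM, Zeb2 150 and 94.8 CPM and S100a4 273 and 174 CPM. Acta2 and Tagln complete the 4 higher genes of 9 (against 2.6% of all genes), which were 3 without members carrying blood, immune, mural or fibroblast markers, where Acta2 had a ratio of 1.90. Tagln, a smooth muscle protein, had 1.57 and 81.2 CPM, with 92.0% of its ischemia UMIs in 5 cells, and a ratio of 4.20 in that setting. None of 18 endothelial identity genes was past 2-fold either way (against 6.72% of all genes), with a median ratio of 1.05. Among them Tm4sf1 had 1358 and 2420 CPM (ratio 1.78, but 1.01 without members carrying large-vessel or lymphatic genes), Ecscr 318 and 621 CPM (ratio 1.95) and the angiopoietin receptor Tek 510 and 322 CPM (ratio 0.631).

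The apelin pair was higher. Apln (chrX:48025146-48034853, minus strand), a peptide made by growing endothelial tips, had 9 UMIs in 3 control cells and 247 UMIs in 49 ischemia cells, or 4.71 and 84.2 CPM (ratio 17.9, 9.27 to 39.6, and from 8.53 to 107 over the alternatives). Its receptor Aplnr had 12.6 and 38.2 CPM (ratio 3.04, 1.94 to 4.95). Adamts1, a secreted protease, was the other gene of the VEGF and apelin list past 2-fold upward, at 100 and 205 CPM (ratio 2.04, 1.73 to 2.41), close to the threshold and 1.78 with at most 1% tubule marker UMIs, and it was also higher in thick ascending limb cells (18.7 and 273 CPM). Nrp1 (chr8:128358604-128503363, plus strand), the VEGF co-receptor, was lower at 569 and 272 CPM (ratio 0.479, 0.437 to 0.526). Its ratio ranged from 0.407 to 0.583 over the alternatives, so it lay on either side of 0.5. Vegfa itself was low in these cells (32.4 and 14.7 CPM), and its ratio of 0.452 was 1.01 in thinned cells. Other tip cell and VEGF genes lay closer to 1, Esm1 at 449 and 520 CPM (ratio 1.16, 1.06 to 1.26, but 0.827 with at most 1% tubule marker UMIs), Dll4 at 58.1 and 99.9 CPM (ratio 1.72) and Notch1 at 126 and 130 CPM. In the angiopoietin list none of 6 compared genes was past 2-fold (against 6.72% of all genes), and Angpt2, which destabilises vessels, had 16.7 and 31.7 CPM (ratio 1.89, 1.26 to 2.93). Over the alternatives Angpt2 ranged from 1.18 in thinned cells to 3.01 without its 5 highest members, and it was past 2-fold in 5 of 16.

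Genes that mark capillaries were divided. Of 14 compared genes 3 were at least 2-fold lower (against 4.12% of all genes) and 1 higher (against 2.6%), with a median ratio of 0.788. In thinned cells 1 was lower and 2 were higher. Igfbp5 (chr1:72857932-72874884, minus strand), a growth factor binding protein and the most abundant of them, stood at 1705 CPM in control cells and at 831 CPM in ischemia (ratio 0.487, 0.462 to 0.514). Its median per cell was 4 UMIs in the control and 1 in ischemia, and its ratio ran from 0.359 to 0.554 over the alternatives. Npr3 (chr15:11839896-11907287, minus strand), the clearance receptor of natriuretic peptides, had 203 and 82.2 CPM (ratio 0.404, 0.343 to 0.476). Over the alternatives the Npr3 ratio ran from 0.245 with at most 1% tubule marker UMIs to 0.528 in thinned cells. Car4, a carbonic anhydrase on the capillary surface, had 27.2 and 10.2 CPM, from 52 and 30 UMIs, with a ratio of 0.543 in thinned cells. Igfbp3, by contrast, had a ratio of 1.05 (0.981 to 1.12, but 0.832 with at most 1% tubule marker UMIs), and Gpihbp1, the carrier of lipoprotein lipase, had 528 and 700 CPM. Fabp4, a fatty acid carrier and the most abundant gene of the separate lipid uptake list, had 4866 and 4610 CPM (ratio 0.947, but 1.18 without members carrying large-vessel or lymphatic genes). Cd36, a fatty acid transporter, had 240 and 154 CPM.

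Other lower genes were enriched in the members in both libraries. Clic5, a chloride channel family protein, had 441 and 185 CPM (ratio 0.418, 0.375 to 0.467). Thrsp, known for lipid synthesis, had 130 and 51.5 CPM (ratio 0.397, 0.322 to 0.488). Btnl9, a butyrophilin-like surface protein, had 161 and 74.3 CPM (ratio 0.463), and the receptor phosphatase Ptpru 134 and 62.4 CPM (ratio 0.466). The highest ratio over the alternatives was 0.561 for Clic5, 0.555 for Btnl9 and 0.685 for Ptpru, past the threshold of 0.5. Malat1, an abundant nuclear RNA, stood at 28658 CPM in control cells and at 24314 CPM in ischemia, and the part of nuclear RNA in these ratios was not tested. Gm42418, an annotation known to overlap ribosomal RNA sequence, was the most abundant compared gene at 87459 and 41101 CPM (ratio 0.47, and 0.548 in thinned cells), and it stood at 56458 and 23588 CPM in thick ascending limb cells. The median ratio of all genes was at 0.999 with it included, and its part in the other ratios was not tested.

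Of 16 interferon genes 1 was past 2-fold (against 6.72% of all genes), and that gene was lower. The list's median ratio was 1.109, with 10 genes above 1 and 6 below, and it turned to 0.833 in thinned cells, 0.992 with at most 1% tubule marker UMIs and 0.9996 without members carrying large-vessel or lymphatic genes. Rsad2 (chr12:26442746-26456452, minus strand), the antiviral protein viperin, had 788 and 308 CPM (ratio 0.390, 0.359 to 0.424). In thinned cells it was seen in 51.5% of control and 25.4% of ischemia members, against 0.285% and 0.949% of thick ascending limb cells. Among the others Ifitm3 was at 1821 and 2867 CPM (ratio 1.57), Ly6a at 2276 and 2838 CPM (ratio 1.25), Isg15 at 118 and 152 CPM and Ifit1 at 45.5 and 35.1 CPM (ratio 0.772, 0.575 to 1.04). Antigen presentation genes also had ratios on both sides of 1. In MHC class I, H2-T23 was lower at 271 and 135 CPM (ratio 0.497), just past the threshold and not past it in 9 of 16 alternatives, while H2-D1 had 1229 and 1376 CPM and H2-K1 805 and 1053 CPM. Class II genes were low, with Cd74 at 56.0 and 65.1 CPM (ratio 1.16, 0.914 to 1.49).

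Genes of flow response and tone had a median ratio of 0.964. Klf2, a transcription factor induced by laminar flow, had 1280 and 1245 CPM (ratio 0.973, 0.924 to 1.02). Without members carrying large-vessel or lymphatic genes the Klf2 ratio was 0.789. Nos3, the endothelial nitric oxide synthase, had 106 and 114 CPM (ratio 1.07, 0.896 to 1.28). Of 14 genes of this list Adm alone was past 2-fold (against 6.72% of all genes), with 11 and 46 UMIs, and its ratio of 2.73 ranged from 1.59 to 6.46 over the alternatives. Of 12 coagulation and fibrinolysis genes 11 had a ratio above 1, 2 were at least 2-fold higher (against 2.6% of all genes) and none was 2-fold lower, with a median ratio of 1.32 against 0.999 over all genes. Procr, the endothelial receptor of protein C, had 25.1 and 72.3 CPM (ratio 2.88, 2.10 to 4.03), with a lowest ratio of 1.77 over the alternatives. Von Willebrand factor (Vwf) had 6.80 and 47.7 CPM from 13 and 140 UMIs, with 64.3% of the ischemia UMIs in 5 cells, and its ratio of 7.02 ranged from 3.17 to 34.3 over the alternatives. Thrombomodulin (Thbd), which turns thrombin to protein C activation, was the gene below 1, at 222 and 161 CPM (ratio 0.726, 0.635 to 0.829). No junction gene of 8 and no glycocalyx gene of 6 was past 2-fold (against 6.72% of all genes), with median ratios of 1.005 and 1.05. The ratio of Cldn5, the most abundant junction gene, was 1.78, but 3.42 without members carrying large-vessel or lymphatic genes and 0.939 in thinned cells.

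Genes of several stress responses were compared, and 6.72% of all genes were past 2-fold. All 16 compared immediate early genes had a ratio above 1, with a median of 1.38, and 1 of them (Myc, 10 and 71 UMIs) was past 2-fold. Without members carrying large-vessel or lymphatic genes the list's median ratio was 1.10 and that of Fos turned from 1.35 to 0.918. Fos had 1348 and 1818 CPM and Egr1 533 and 760 CPM (ratio 1.43). The Egr1 ratio was 2.12 with members of at most 20000 UMIs and 2.28 without its 5 highest members. These genes are also known to be induced when tissue is dissociated, and the part of dissociation was not tested. In the heat shock and unfolded protein list 1 of 16 was past 2-fold, Xbp1, a factor of the unfolded protein response, at 84.7 and 200 CPM (ratio 2.35, 1.98 to 2.82), and the chaperone Hspa5 had 315 and 545 CPM (ratio 1.73). Gadd45a, a growth arrest gene, had 16.2 and 57.3 CPM (ratio 3.53), and Cdkn1a (p21) 104 and 173 CPM (ratio 1.67, 1.41 to 1.98, and 2.99 in thinned cells). None of 19 glycolysis and hypoxia genes was past 2-fold, with a median ratio of 0.986. All 5 compared cell cycle genes had a ratio above 1 and none was past 2-fold, with a median ratio of 1.57. At least 3 UMIs of this list were in 29.0% of control and 48.0% of ischemia members, at unequal depth. The proliferation gene Mki67 was at 0.523 and 0.341 CPM, that is 1 UMI in each library, too few to compare.

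**Figure D3:**
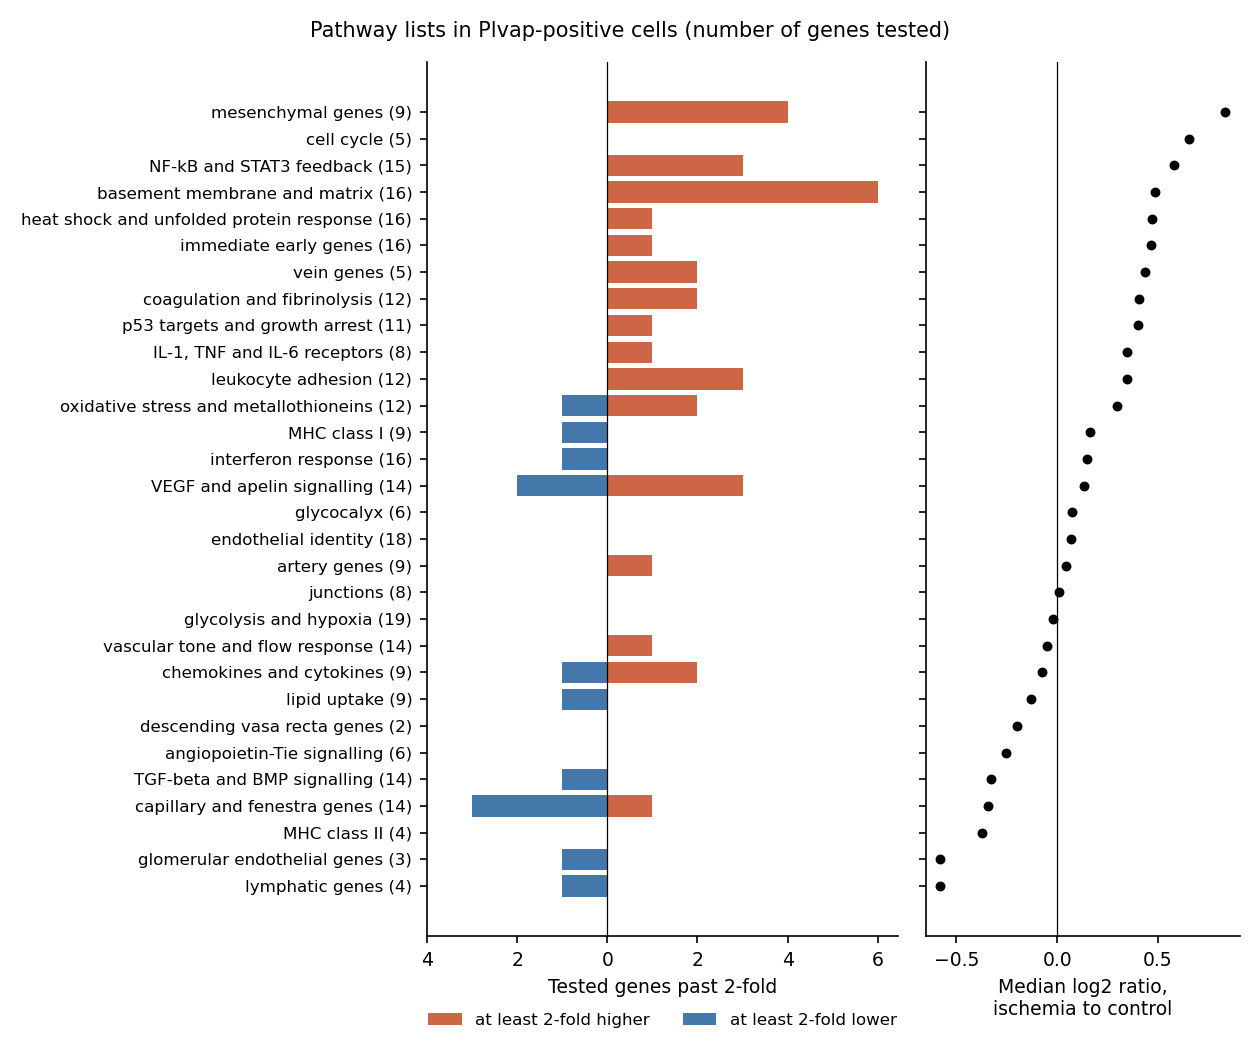
For each of 30 pathway lists, the bars count the compared genes at least 2-fold higher (orange, right) or lower (blue, left) in ischemia, and the points give the list's median log2 ratio of ischemia to control, with the number of genes compared in brackets. The basement membrane list has the most higher genes (6 of 16), and the capillary list the most lower genes (3 of 14).

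Transcripts of tubule and other cells were measured in the same cells. The 10 proximal tubule markers summed to 8090 CPM in the control members and 3931 CPM in the ischemia members, against 26455 and 19121 CPM over all kept cells. Of these 10 markers 7 were at least 2-fold lower (against 4.12% of all genes). The most abundant of them, Gpx3, had 2688 and 1526 CPM. The 7 injured tubule markers summed to 940 and 6506 CPM, against 3832 and 30137 CPM over all kept cells. Spp1 (osteopontin), the most abundant of these, had 750 and 5709 CPM in the members (ratio 7.61, 7.21 to 8.04) and 10464 and 72760 CPM in thick ascending limb cells. Metallothioneins had the same pattern: Mt1 was at 247 and 526 CPM and Mt2 at 27.2 and 172 CPM in the members, and at 2720 and 11660 CPM and at 402 and 2808 CPM in thick ascending limb cells. Thus Spp1, Clu, Mt1 and Mt2 were higher in the members in the same direction as in the tubule cells around them, and the part of free RNA in these ratios was not tested. Without members above 20000 UMIs the Mt1 ratio was 1.46. Leukocyte markers were near 0. The 7 macrophage markers summed to 12.6 and 37.5 CPM with C1qb the most abundant in ischemia (9.89 CPM), the 4 neutrophil markers to 6.28 and 15.3 CPM, and the 5 T and B cell markers to 1 and 2 UMIs. Pericyte and smooth muscle markers summed to 15.7 and 341 CPM, with Pdgfrb and Notch3 at 0 in the control.

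The spread over cells is given for the genes at the ends of the ratios. Of the enriched genes with a mean of at least 50 CPM, 20 were taken from each end of the ratios and summed in each cell after thinning to 1000 UMIs, which left out 1 control member. The 20 higher genes, from AA467197 to Snrpa1, had a median of 2 UMIs per cell in the control (quartiles 1 and 4) and 6 in ischemia (quartiles 3 and 9). Of the ischemia members 83.8% lay above the control median. The 20 lower genes, among them Rsad2, Npr3 and Clic5, had medians of 3 and 1 UMIs, and 32.0% of ischemia members against 6.13% of control members had none. The genes were chosen for their ratio in these cells, and 4 of the higher (Ccn1, Nsmce1, Snrpa1 and Tmem252) and 3 of the lower (9530026P05Rik, Palm and Syn3) met the 2-fold bound over non-endothelial cells in the library where they were high alone. The shift is therefore a description and supports no difference, and the ranges overlapped (0 to 15 and 0 to 23 UMIs for the higher genes).

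**Figure D4:**
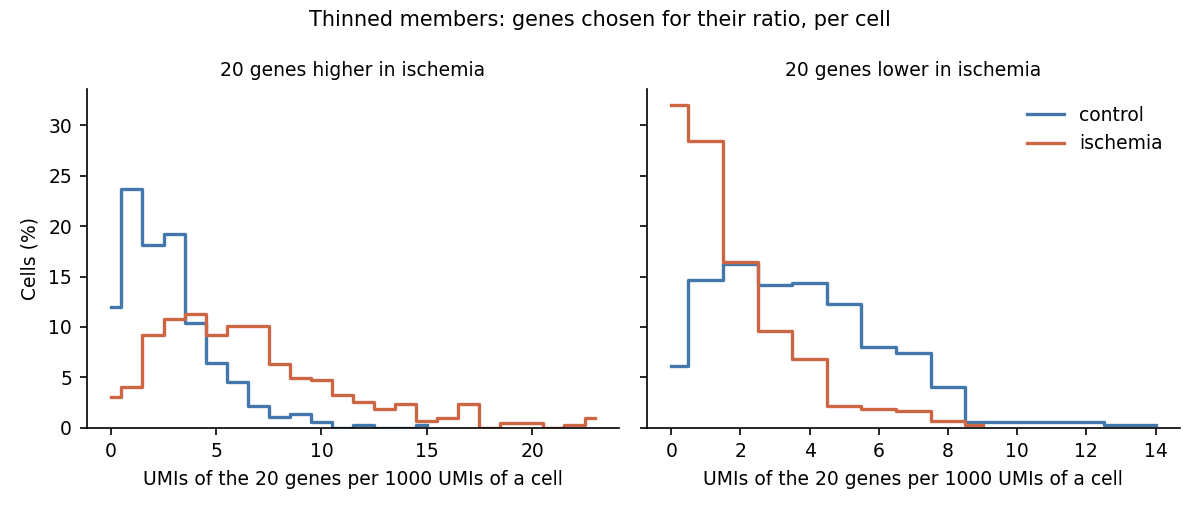
Share of Plvap-positive endothelial cells (%, y axis) by the number of UMIs of 20 genes higher in ischemia (left) or 20 genes lower in ischemia (right) per 1000 UMIs of a cell (x axis), for 375 control and 425 ischemia members. The ischemia curve is shifted right for the higher genes (median 6 against 2) and left for the lower genes (median 1 against 3), with overlap of the curves.

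The members were not uniform within a kidney. Igfbp3 gave a UMI in 56.9% of control and 59.1% of ischemia members (35.2% and 38.4% after thinning), and at least 10 UMIs in 52 and 84 cells, with highest values of 53 and 60 UMIs. Fabp4 was in nearly all cells (93.6% and 95.5%, or 84.5% and 85.9% thinned) but reached 440 and 478 UMIs in single cells. The arterial transcription factor Sox17 was in 35.6% and 33.6% of members (16.3% and 13.4% thinned). In thinned thick ascending limb cells, which should lack these genes, at most 0.633% had a UMI of Igfbp3, Fabp4 or Sox17. Vcam1 was seen in 55 control cells and 175 ischemia cells before thinning, at depths of 3648 and 4565 UMIs, and with at least 3 UMIs in 19 and 77 cells. More cells thus carried it in ischemia, and the 5 highest gave 42.7% of its UMIs in the control and 22.1% of them in ischemia.

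Cells with at least 2 UMIs of Ehd3 and none of Plvap, the glomerular counterpart, were few (55 in the control and 34 in ischemia, 431513 and 365008 UMIs). In the control Igfbp3 had 709 CPM in Plvap-positive and 2.32 CPM, or 1 UMI, in Ehd3-positive cells. Rgcc had 1070 CPM and no UMI, which made it at least 154-fold higher in the Plvap-positive cells, and Npr3 had 203 and 2.32 CPM. In the other direction stood Sele, at 9.42 CPM in Plvap-positive and 399 CPM in Ehd3-positive control cells (ratio 0.0236, 0.0137 to 0.0385), beside globin genes. The tissue plasminogen activator Plat had 165 CPM in the Plvap-positive control cells and 4538 CPM in the Ehd3-positive ones. Rsad2 had 41 and 23 UMIs in the Ehd3-positive cells.

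Several of the genes described above had ratios near 1 in the Ehd3-positive cells, and the difference between the gates was not tested. Sparc had a ratio of 1.07 there (0.965 to 1.20), Ctla2a, a protease inhibitor, 1.05 against 2.75 in Plvap-positive cells (1.93 without members carrying large-vessel or lymphatic genes), Col4a2 1.27 (1.04 to 1.54) and Socs3 1.15 (0.985 to 1.34). Timp3 had 1.11 (1.01 to 1.21) against 0.542 (0.714 without members carrying large-vessel or lymphatic genes). Nrp1 had 1.03 (0.921 to 1.15) against 0.479. Kdr (1.07 against 0.677) and Flt1 (1.20 against 0.785) are among the genes that chose the cells of both gates, so their values are a description. Esm1 had 8.57 (4.07 to 20.8) in the Ehd3-positive cells, from 8 and 58 UMIs, against 1.16. Klf2 had 0.676 (0.605 to 0.754) against 0.973 (0.789 without members carrying large-vessel or lymphatic genes). Podxl had 0.551 against 0.559 and Spp1 8.54 against 7.61. Adamts9, a secreted protease, was higher in both, at 2.29 (1.79 to 2.95) against 3.70 (3.16 to 4.34, and 2.11 without members carrying large-vessel or lymphatic genes). Endothelial cells with neither gene (53 and 66 cells, 205283 and 244837 UMIs) had ratios of 5.50 for Lrg1, 2.52 for Ctla2a, 1.44 for Sparc, 0.673 for Nrp1 and 1.05 for Vcam1.

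**Figure D5:**
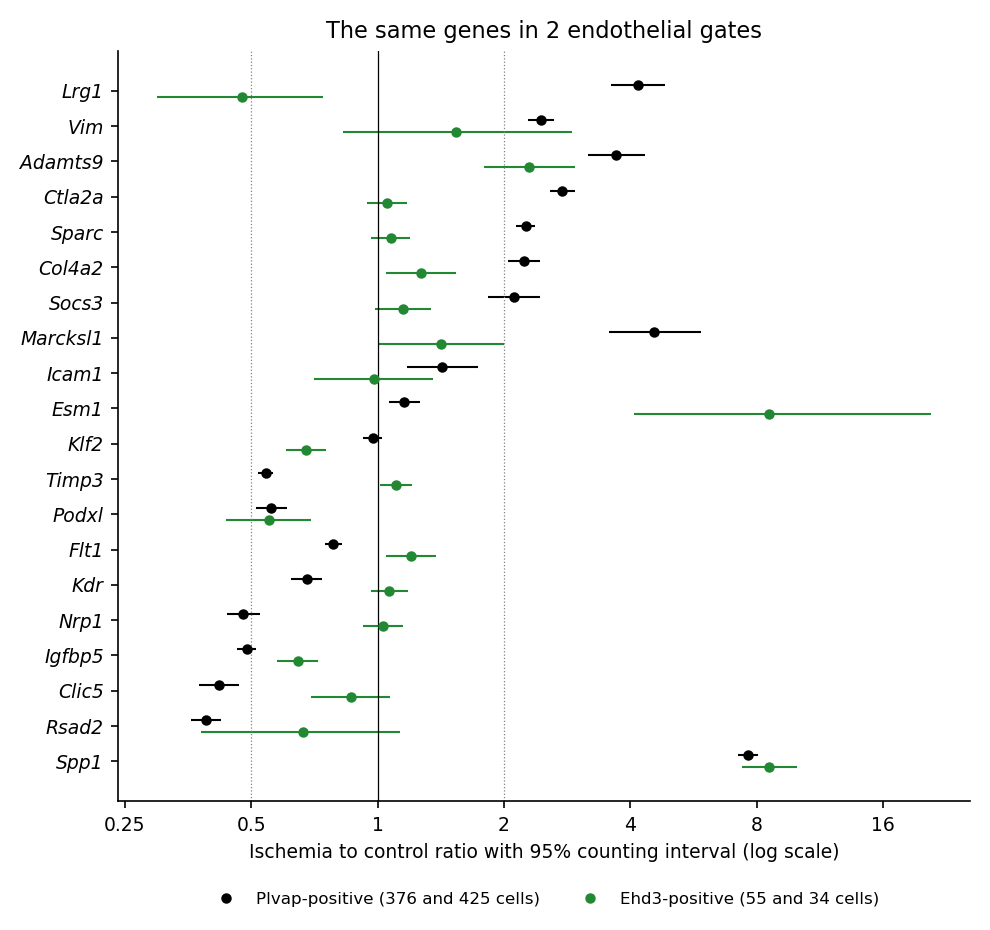
Ratio of ischemia to control for 20 genes, on a log axis with 95% counting intervals, in Plvap-positive cells (black, 376 and 425 cells) and Ehd3-positive cells (green, 55 and 34 cells), with dotted lines at 0.5 and 2; Flt1 and Kdr were used to choose the cells. Lrg1 lies on opposite sides of 1 in the 2 gates, the ratios of Sparc, Ctla2a, Timp3 and Nrp1 are near 1 in Ehd3-positive cells, and those of Podxl and Spp1 are close to each other.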

How the data were processed

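Per the submitters' processing notes the authors used Cell Ranger 7.0.0 with mm10 on 10x 3' libraries, and they deposited raw UMI counts per gene and barcode, with no normalization. Intron settings are not given in the sources used here. The libraries held 15110 (control) and 15257 (ischemia) barcodes with 142686238 and 142959737 UMIs. Kept barcodes had 200 genes or more, between 500 and 150000 UMIs, and mitochondrial UMIs of 55% or less, and 58 kept barcodes occurred in both libraries. Counts were summed over members and divided by their total UMIs (CPM), with exact Poisson intervals. Ratios carry exact conditional binomial intervals and a count of 0 was set to 3 UMIs. A gene was past 2-fold at a ratio of at least 2 or at most 0.5, among genes with a mean of at least 10 CPM. Thick ascending limb cells (at least 5 UMIs of Slc12a1) gave the background, with median depths of 15089 and 26692 UMIs. Scrublet (scanpy 1.11.5) called 0 doublets by its own threshold, so it did not work here and no doublet was removed. Genes were named by rule: the genes that chose the cells, the 15 highest and 15 lowest ratios at a mean of 50 CPM or more, the most abundant gene of each list and up to 4 of its largest changes, 20 fixed genes, and the 5 extremes each way against Ehd3-positive cells. The genes enriched in the members, the motif search and further list genes given as values were added after values were seen. Positions and spans are from GENCODE M21 (GRCm38), which held 32158 of 32285 identifiers. The members and lists were chosen with earlier results of these data known. The computation of the ratios was checked on simulated Poisson counts with known changes. These counts had no spread over cells and no difference between libraries, so the check does not bear on the ratios reported here.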

Additional observations from a re-analysis of the deposited data

Results flagged for a closer look

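These genes had ratios of at least 2 in one and at most 0.5 in the other of the Plvap-positive and Ehd3-positive cells, with no minimum level asked of the Ehd3-positive cells. The difference between the gates was not tested, and with 1 library per condition and few Ehd3-positive cells it has no replicate check. Lrg1 was higher in Plvap-positive cells (ratio 4.16) and lower in Ehd3-positive cells (ratio 0.476, 95% interval 0.298 to 0.742, from 72 and 29 UMIs). Npr3 was lower in Plvap-positive cells (ratio 0.404), and its Ehd3-positive ratio of 5.91 rested on 1 and 5 UMIs, with an interval that included 1 (0.661 to 280). Ephx1, an epoxide hydrolase, had a ratio of 0.461 in Plvap-positive cells (0.767 in thinned cells) and 2.10 in Ehd3-positive cells (0.875 to 5.40, which includes 1, from 9 and 16 UMIs). Nqo1, an oxidoreductase, had 0.389 in Plvap-positive cells, which turned to 1.06 in thinned cells, and its 0 and 6 UMIs in Ehd3-positive cells were at least 2.36-fold higher in ischemia. Snai1 had 4.16 in Plvap-positive cells (12.4 in thinned cells) and 0.236 in Ehd3-positive cells, from 5 and 1 UMIs, with an interval that included 1. The globin genes had ratios of 1312 (Hba-a1), 231 (Hba-a2), 454 (Hbb-bs) and, against 0 UMIs, at least 269 (Hbb-bt) in Plvap-positive cells, all from a few ischemia cells. In Ehd3-positive cells, their ratios were 0.151, 0.128, 0.0987 and 0.122.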

How the results depend on the processing

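No paired analysis was possible because each condition had 1 library, and there was no replicate to leave out. The naming rule took 98 genes with a ratio of at least 2 or at most 0.5, counted here with no minimum level. Of these, 49 stayed so under all 16 alternatives tried for genes and 6 more under the 14 or 15 that gave them a value. Of the alternatives, 5 were chosen after seeing the data (the limit of 20000 UMIs, 1 Ehd3 UMI, each gene's 5 highest cells, and leaving out members with other-cell or large-vessel markers). Of the 98 genes, 8 changed direction under at least 1, among them C1qb and Col1a2, which lay below the 10 CPM asked of compared genes. With at most 25% mitochondrial UMIs the members were 4.02% of control and 3.70% of ischemia cells, and with at least 1000 UMIs per cell 4.15% and 5.39%. Letting in 1 Plvap UMI gave 3.57% in ischemia, and letting in 1 Ehd3 UMI 4.17% and 4.44%. Leaving out members with more than 1% tubule marker UMIs left 160 and 188 members (1.27% and 1.43%), and leaving out those with large-vessel or lymphatic genes gave 2.56% in each library. Genes past 2-fold numbered 652 higher and 830 lower after thinning to 1000 UMIs, 101 and 147 at a mean of at least 30 CPM, and 871 and 1208 with no filter beyond 1 UMI. The calls were not all the same genes. Of the 233 higher and 369 lower genes, 131 and 213 were called again in thinned cells, where 210 and 342 kept their direction. By the mean of each cell's CPM 138 and 237 were called again, and 157 and 250 without members carrying large-vessel or lymphatic genes. In thinned cells the ratio of Col18a1 was 0.618, of Nqo1 1.06 and of Vegfa 1.01. Without the highest Scrublet scores Ccl21a had a ratio of 223 and C1qb 0.608. With 1 Plvap UMI let in Col1a2 had 0.328. Without members with blood, immune, mural or fibroblast markers Hba-a2 had 0.280 and Hbb-bs 0.5001. The cause of these changes was not tested. Depth limits genes under about 10 CPM, where a member group holds few UMIs.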

Other observations

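Of 14 TGF-beta and BMP genes, 9 had a ratio below 1 and 1 was at least 2-fold lower (against 4.12% of all genes), with a median ratio of 0.795 against 0.999 over all genes. None was past 2-fold with members of at most 20000 UMIs or without members carrying large-vessel or lymphatic genes. Id3, a BMP target and the most abundant of the list, stood at 891 and 553 CPM (ratio 0.621, 0.580 to 0.665), and Id1 at 581 and 414 CPM (ratio 0.712). Tgfb2 stood at 45.5 and 18.1 CPM (ratio 0.397), and at a ratio of 0.601 without members carrying large-vessel or lymphatic genes.

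The arterial connexin Gja5 was past 2-fold in the artery list, at 12.6 and 74.0 CPM (ratio 5.89), with 60.8% of its ischemia UMIs in 5 cells and a ratio of 1.76 in thinned cells. Lipoprotein lipase (Lpl) stood at 42.9 and 12.3 CPM (ratio 0.286), and after thinning it was seen in 32.8% and 4.11% of thick ascending limb cells against 2.40% and 1.18% of members.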
